A study of Rattus norvegicus with 21 samples.

Results

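Cytochrome P450 enzymes of families 1 to 4 were followed in tumours of a rat cholangiocarcinoma line, a bile duct cancer grown in the liver. The genes were those with a symbol of families Cyp1 to Cyp4 on an Affymetrix rat array, each read from 1 probe set that names no other gene, the brightest on average across the 21 arrays where a gene had several. The 7 genes Cyp2c11, Cyp2c12, Cyp2c13, Cyp2a2, Cyp4a1, Cyp2e1 and Cyp1a2 were left out by the rule that chose the members. This gave 35 genes in 17 subfamilies, of 14218 genes measured.

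All tissue came from 9 male, young adult Fischer 344 rats that carried tumours of BDEneu, a single line of rat bile duct epithelial cells transformed by the activated neu (Erbb2) oncogene. Tumour and the right liver lobe, named normal in the labels, were taken from rats 1 to 3 at day 10, rats 4 to 6 at day 15 and rats 7 to 9 at day 25 after inoculation, and rats 7 to 9 also gave a peritoneal metastasis. This gave 7 groups of 3 arrays, 1 array per rat and tissue. Each liver was that of a tumour-bearing rat, and livers of rats without tumours were not analysed here.

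P450 enzymes are haem proteins of the endoplasmic reticulum that insert an oxygen atom into their substrate with electrons from P450 oxidoreductase. Family 1 is known for the oxidation of aromatic hydrocarbons, families 2 and 3 for drugs and steroids, and family 4 for the omega-hydroxylation of fatty acids and eicosanoids. Hepatocytes are their main site in the body, where nuclear receptors, liver-enriched transcription factors, growth hormone and inflammation are known to set their transcript levels.

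Values are log2 signals after RMA, and differences are of group means on that scale with their standard error (SE). The medians of the arrays lay between 5.98 and 6.06. Erbb2, the oncogene of the line, measured 8.72 to 10.80 in the tumours and metastases and 4.98 to 5.69 in the livers. The mean over 16 hepatocyte genes was 12.50 to 12.99 in livers, 9.73 to 11.79 in tumours of days 10 and 15, 7.78, 10.45 and 10.61 in the day 25 tumours of rats 7, 8 and 9, and 6.09 to 7.05 in metastases. The day 25 tumour of rat 7 stood apart from the other day 25 tumours in this respect. Transcripts of the pancreas were high in 3 arrays, with means over 9 acinar genes of 9.09 (day 15 tumour, rat 5), 8.87 (day 25 tumour, rat 9) and 11.21 (metastasis, rat 8).

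Tumours held less P450 transcript than livers for most members. With limma over all 21 arrays (Benjamini-Hochberg adjustment over all genes, called at an adjusted p under 0.05), 30 of the 35 members were lower in the 9 tumours than in the 9 livers and 3 were higher, with a median difference of -2.13. Of all genes 37.8% were called lower and 36.8% higher, with a median of -0.03. The arrays of the tissues did not overlap for 15 lower members and 1 higher member, against 12.4% and 19.7% of all genes. By day, 24 members were lower and 2 higher at day 10 (28.0% and 30.4% of all genes), 21 and 2 at day 15 (23.6% and 28.2%), and 24 and 1 at day 25 (22.4% and 27.7%). The same 18 members were lower at all 3 days, and Cyp2s1 was higher at all 3. The 18 included Cyp1a1 and Cyp2j10, which lay below the array medians in every group. No share of all genes is given for calls at all 3 days. Leaving out the 3 arrays with pancreatic transcripts gave 29 lower and 3 higher members over all days, and leaving out the day 25 tumour of rat 7 gave 30 and 3.

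**Figure D1:**
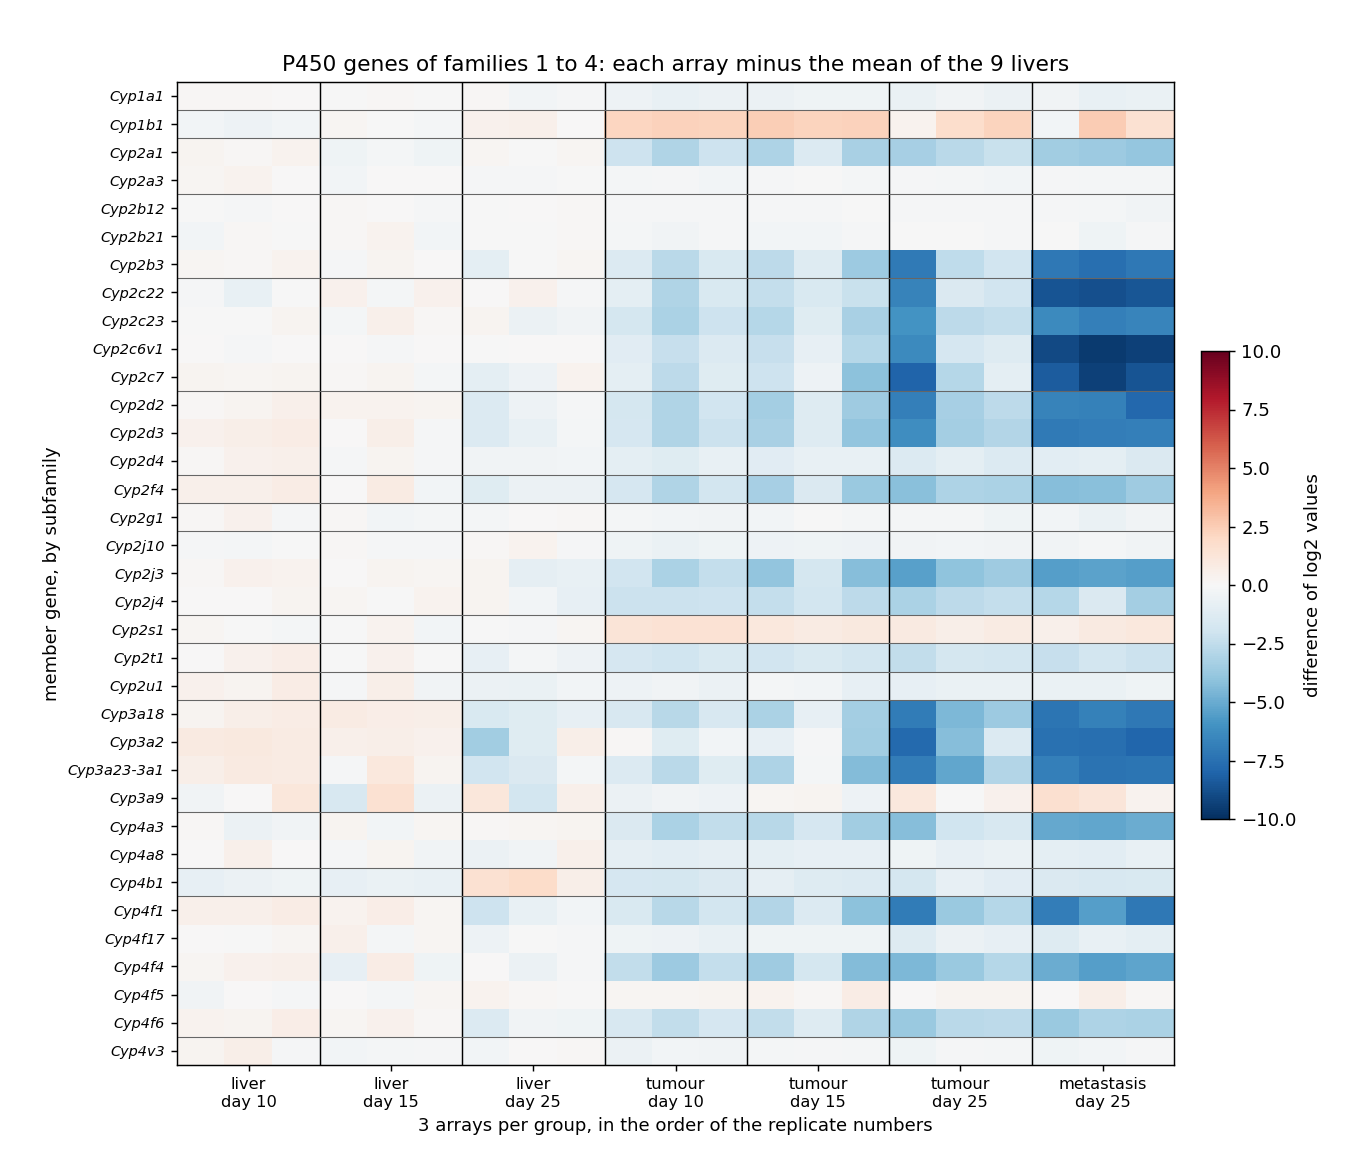
Log2 value of each of the 35 P450 members on each of the 21 arrays, minus the mean of the 9 livers (colour, from blue for lower to red for higher). Columns are arrays in groups of 3 and lines part the subfamilies. Tumours, other than that of rat 7 at day 25, are paler blue than metastases for Cyp2b3 and for the 2c, 2d and 3a members other than Cyp2d4 and Cyp3a9, Cyp1b1 and Cyp2s1 are red in tumours, and Cyp4b1 is red in the day 25 livers.

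Hepatocyte transcripts moved with these differences. Set against the liver of its own rat, the median signal of the members was 48.9, 21.6 and 36.4% in the day 10 tumours (rats 1, 2 and 3) and that of the 16 hepatocyte genes 34.7, 19.2 and 33.2%. At day 15 the members stood at 28.6, 48.7 and 15.9% (rats 4, 5 and 6) and the hepatocyte genes at 18.8, 46.5 and 12.7%. At day 25 the members stood at 13.4, 27.9 and 39.0% (rats 7, 8 and 9) and the hepatocyte genes at 2.84, 26.3 and 28.8%. Among tumours both were lowest in rat 7, and the order of the others was not the same for both. In the metastases the hepatocyte genes were at 1.24, 0.997 and 1.06% and the members at 12.5, 15.4 and 16.5%, where the 8 members that lay below the lowest array median in every group take part in the median. In bulk tissue, fewer hepatocytes and less P450 transcript per hepatocyte cannot be told apart, and the part of hepatocyte content in the differences was not tested.

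**Figure D2:**
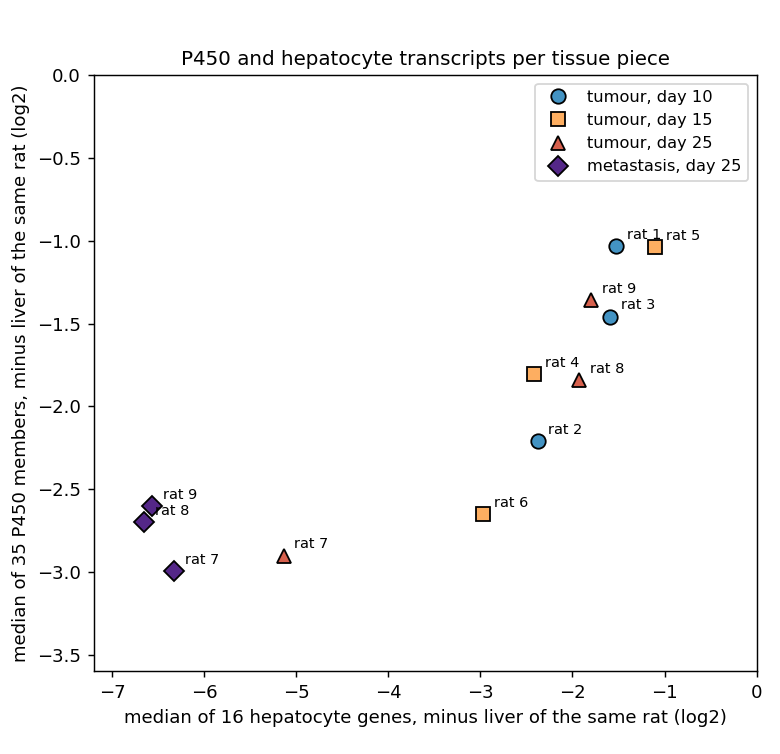
Median over the 35 P450 members (vertical axis) and over 16 hepatocyte genes (horizontal axis) in each tumour and metastasis, minus the liver of the same rat, on the log2 scale. Tumours run between -2.90 and -1.03 for the members, and the day 25 tumour of rat 7 lies next to the 3 metastases, at -5.14 for the hepatocyte genes.

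Among the members that oxidise aromatic hydrocarbons, family 1 was split. Cyp1b1, an enzyme found mostly outside hepatocytes that oxidises oestradiol and polycyclic hydrocarbons, had a lowest, median and highest log2 value of 6.80, 7.29 and 7.83 in livers and 7.63, 9.51 and 9.73 in tumours. The tissues overlapped through a single tumour, that of rat 7 at day 25, and every other tumour lay at 9.09 or above. Cyp1b1 was higher in tumour by 2.00 (SE 0.30, limma adjusted p = 1.40e-05). In rat 7 the tumour measured 7.63 and the metastasis 7.00, against 9.09 and 9.84 in rat 8 and 9.56 and 8.85 in rat 9. The mean over 12 myofibroblast genes was also lowest in rat 7 among tumours and metastases (10.44 and 10.08), as was that over 9 endothelial genes (7.06 and 6.93), and their part in the Cyp1b1 values was not tested. At day 25 alone the difference of 1.14 was uncalled (adjusted p = 0.077), and it was called without the tumour of rat 7 (1.70, adjusted p = 0.0118) and with the rat as a block (adjusted p = 0.0496). Cyp1a1, the classic target of the aryl hydrocarbon receptor, stayed below the array medians in all groups, at 5.25 to 5.67 in livers and 4.76 to 5.18 in tumours.

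Cyp2s1, a P450 of epithelia, measured 5.31, 5.52 and 5.95 (lowest, median, highest) in livers and 6.19, 6.57 and 7.07 in tumours, with no overlap. It was higher in tumour by 1.04 (SE 0.10, limma adjusted p = 5.26e-08). Its day 10 tumours, at 6.88, 7.07 and 7.00, lay above all tumours of the later days, and the difference of -0.62 between day 25 and day 10 was uncalled (adjusted p = 0.155). The third member higher in tumour, Cyp4f5, was dim, with 4.85, 5.22 and 5.55 in livers and 5.22, 5.45 and 5.92 in tumours. These ranges overlap, the difference was 0.28 (SE 0.10, adjusted p = 0.0164), and centring the arrays on the genes tested brought it to 0.05 (adjusted p = 0.639).

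The 3a subfamily, the main oxidisers of drugs and of testosterone in liver, was examined most closely, because its median difference between liver days 25 and 10 was the lowest of the subfamilies (-1.84). Promoters of its 4 members are shown, from RefSeq (GRCr8), 250 bases before to 50 after the gene start, with that of Cyp4b1, whose liver level rose. Capitals mark the hexamer TGAACT on either strand (AGTTCA on the strand shown), its direct repeat with the 3 bases between the copies, and CAAAGTCCA.

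Cyp3a2 promoter, chr12:14343808-14344107, - strand: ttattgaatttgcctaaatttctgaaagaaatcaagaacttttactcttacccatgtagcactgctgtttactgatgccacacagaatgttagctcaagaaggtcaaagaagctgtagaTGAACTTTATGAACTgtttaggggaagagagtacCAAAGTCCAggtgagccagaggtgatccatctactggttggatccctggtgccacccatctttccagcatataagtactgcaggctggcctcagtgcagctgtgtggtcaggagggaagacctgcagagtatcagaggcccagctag
Cyp3a23-3a1 promoter, chr12:14398754-14399053, - strand: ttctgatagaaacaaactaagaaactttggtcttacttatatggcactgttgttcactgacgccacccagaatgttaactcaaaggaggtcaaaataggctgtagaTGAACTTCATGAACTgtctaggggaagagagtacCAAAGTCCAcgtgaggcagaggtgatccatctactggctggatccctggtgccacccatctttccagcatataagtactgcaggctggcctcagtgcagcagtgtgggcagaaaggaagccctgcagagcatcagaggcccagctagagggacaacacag
Cyp3a18 promoter, chr12:13994062-13994361, + strand: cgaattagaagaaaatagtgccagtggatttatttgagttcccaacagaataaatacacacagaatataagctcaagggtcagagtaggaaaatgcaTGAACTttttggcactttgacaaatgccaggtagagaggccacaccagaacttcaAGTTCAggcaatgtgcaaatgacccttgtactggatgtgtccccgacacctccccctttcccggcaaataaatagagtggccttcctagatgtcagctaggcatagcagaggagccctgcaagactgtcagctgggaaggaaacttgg
Cyp3a9 promoter, chr12:21960111-21960410, - strand: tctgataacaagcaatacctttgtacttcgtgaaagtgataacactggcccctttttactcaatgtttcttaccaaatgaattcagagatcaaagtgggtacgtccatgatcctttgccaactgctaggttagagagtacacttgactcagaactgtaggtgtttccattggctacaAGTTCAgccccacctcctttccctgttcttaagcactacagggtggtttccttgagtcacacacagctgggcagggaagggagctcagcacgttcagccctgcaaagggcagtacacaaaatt
Cyp4b1 promoter, chr5:134393067-134393366, - strand: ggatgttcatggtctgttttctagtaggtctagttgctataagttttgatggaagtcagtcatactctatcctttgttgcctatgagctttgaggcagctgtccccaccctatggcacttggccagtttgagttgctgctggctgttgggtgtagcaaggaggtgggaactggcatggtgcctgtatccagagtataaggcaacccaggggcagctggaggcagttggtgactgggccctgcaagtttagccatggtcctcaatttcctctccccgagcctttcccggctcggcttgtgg

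Direct repeats of this hexamer are, as background, elements bound by the pregnane X receptor (Nr1i2) with Rxra, and CAAAGTCCA resembles the site of Hnf4a. The direct repeat, with 3 bases between the copies, occurred on either strand in 2 of 33469 RefSeq promoters of the same length (0.00598%), those of Cyp3a2 (positions -131 to -117 from the gene start) and Cyp3a23-3a1 (-144 to -130). CAAAGTCCA occurred in 0.391% of all promoters and, among the 30 members with a promoter entry, in the same 2. The single hexamer TGAACT, which is part of the repeat, occurred in 14.5% of all promoters and in 9 members, among them Cyp3a18 with 2 copies and Cyp3a9 with 1. TGAACT followed by AGGTCA after 6 bases was in no promoter (0%). GCGTG, the core of the aryl hydrocarbon receptor element, was in 29.7% and in 6 members, Cyp1b1 included. The Cyp4b1 promoter held none of these patterns. Only these exact letters were searched, so direct repeats of related hexamers were not counted, and the shares hold for these letters alone. A match describes letters in this window and is no evidence of a bound site.

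In tumours, 3 of the 4 members of the 3a subfamily were lower than in liver. Cyp3a18, a form more abundant in males, had values of 9.64, 11.72 and 11.95 (lowest, median, highest) in livers and 4.15, 8.03 and 10.31 in tumours. The overlap came from the livers of day 25, which were the lowest 3. Its difference was -3.17 (SE 0.40, limma adjusted p = 2.13e-06). Cyp3a23-3a1, the form induced by glucocorticoids and by ligands of the pregnane X receptor, had 9.52, 11.72 and 12.53 in livers and 4.56, 8.55 and 11.24 in tumours, a difference of -3.09 (SE 0.53, adjusted p = 6.48e-05) with overlap. Cyp3a2, the male form of adult liver, was lower by less, with 8.25, 12.33 and 12.70 in livers, 3.96, 10.56 and 11.87 in tumours and a difference of -2.13 (SE 0.70, adjusted p = 0.0120). Cyp3a9, the form more abundant in adult females, ranged from 6.67 to 9.98 in livers and from 7.86 to 9.50 in tumours, with a difference of 0.01 (SE 0.42, adjusted p = 0.990). Its livers varied within each day more than its tumours did.

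All 4 members of the 2c subfamily, which hydroxylate steroids, retinoids and arachidonic acid, were lower in tumour. Cyp2c6v1, a constitutive liver form, had almost one level in livers, with 13.35, 13.47 and 13.52, and spread widely in tumours, with 7.09, 11.76 and 12.65. The tissues did not overlap, and the difference was -2.24 (SE 0.51, limma adjusted p = 0.000860). Cyp2c22, a retinoic acid hydroxylase, had 12.53, 13.20 and 13.71 in livers and 6.57, 11.37 and 12.28 in tumours, without overlap and with a difference of -2.40 (SE 0.53, adjusted p = 0.000623). Cyp2c23, an arachidonic acid epoxygenase, differed by -2.81 (SE 0.40) without overlap, and Cyp2c7, a form more abundant in females, by -2.59 (SE 0.70) with overlap. In each of the 4 genes the lowest tumour was that of rat 7 at day 25.

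The 2d subfamily, known for basic drugs, was lower in all 3 members. Cyp2d2 had 11.34, 13.03 and 13.28 (lowest, median, highest) in livers and 5.88, 9.69 and 11.46 in tumours, a difference of -3.08 (SE 0.47, limma adjusted p = 1.78e-05). Cyp2d3 had 10.23, 11.62 and 12.27 in livers and 5.32, 8.54 and 10.26 in tumours, a difference of -3.11 (SE 0.41, adjusted p = 3.50e-06). In both genes a day 25 liver lay just under the highest tumour, that of rat 5. Cyp2d4, a form also found in brain, did not overlap and differed by less, with 7.66 to 8.57 in livers, 6.67 to 7.30 in tumours and a difference of -1.03 (SE 0.09, adjusted p = 4.46e-08).

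The 2j subfamily holds arachidonic acid epoxygenases. Cyp2j3 had 8.87, 9.93 and 10.20 in livers and 4.35, 6.18 and 7.99 in tumours, without overlap, and a difference of -3.40 (SE 0.32, limma adjusted p = 6.00e-08). A dimmer probe set of Cyp2j3 gave -2.59 (SE 0.20). Cyp2j4, a form of intestine, measured 8.17, 9.03 and 9.34 in livers and 5.82, 6.61 and 7.12 in tumours, a difference of -2.37 (SE 0.22, adjusted p = 4.77e-08). Its tumours had a narrower range than those of Cyp2j3. Cyp2j10 lay below the array medians in every group.

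The remaining members of family 2 differed in size and spread. Cyp2a1, a testosterone hydroxylase, had 11.15, 11.76 and 11.96 in livers and 8.32, 8.91 and 10.24 in tumours, without overlap, and a difference of -2.56 (SE 0.22, limma adjusted p = 1.97e-08). Cyp2b3, a constitutive form of the 2b subfamily, had 11.32, 12.44 and 12.63 in livers and 5.20, 9.78 and 11.01 in tumours, also without overlap, and a difference of -2.74 (SE 0.53, adjusted p = 0.000216). Cyp2f4, a form of lung and of periportal hepatocytes, measured 7.80, 9.09 and 9.87 in livers and 4.90, 5.94 and 7.58 in tumours, with a difference of -2.83 (SE 0.28, adjusted p = 1.53e-07). Cyp2t1 did not overlap either, with 6.40, 7.22 and 7.88 in livers, 4.79, 5.37 and 5.69 in tumours and -1.85 (SE 0.13, adjusted p = 1.66e-09). Cyp2u1, a fatty acid hydroxylase, overlapped, with 6.57 to 7.96 in livers, 6.45 to 7.03 in tumours and a difference of -0.54 (SE 0.12, adjusted p = 0.000689). The dim members Cyp2a3, Cyp2b12 and Cyp2g1 differed by -0.18, -0.10 and -0.23 and were called, and Cyp2b21 was uncalled (-0.16, adjusted p = 0.0857). Normalizing the quantiles again ended the calls of Cyp2a3 (-0.08, adjusted p = 0.206) and Cyp2b12 (-0.01, adjusted p = 0.768).

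Of family 4, the 4f subfamily, which acts on leukotrienes and other eicosanoids, held 4 lower members of 5. Cyp4f4 had 8.63, 9.52 and 10.16 in livers and 4.98, 5.88 and 7.72 in tumours, without overlap, and a difference of -3.24 (SE 0.32, limma adjusted p = 1.27e-07). Cyp4f1 had 9.55, 11.96 and 12.34 in livers and 4.59, 8.76 and 10.23 in tumours, where the day 25 liver of rat 7 lay below the highest tumour, and a difference of -3.11 (SE 0.49, adjusted p = 2.68e-05). Cyp4f6 and Cyp4f17 differed by -2.40 (SE 0.23) and -0.62 (SE 0.11). Cyp4a3, a fatty acid hydroxylase and target of Ppara, had 11.27, 11.97 and 12.15 in livers and 7.57, 9.36 and 10.40 in tumours, without overlap, a difference of -2.55 (SE 0.33, adjusted p = 2.60e-06), and Cyp4a8 differed by -0.82 (SE 0.13), or by -1.45 (SE 0.27) on its dimmer probe set. Cyp4b1, a lung form that activates protoxins, had 6.54, 6.80 and 9.19 in livers and 5.60, 5.96 and 6.51 in tumours, a difference of -1.35 (SE 0.15, adjusted p = 3.68e-07), and its 3 highest livers were those of day 25. Cyp4v3 was dim, at 4.75 to 5.58 in livers and 4.44 to 4.93 in tumours, and its call (-0.27, adjusted p = 0.00862) was lost on normalizing the quantiles again (-0.19, adjusted p = 0.0525).

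**Figure D3:**
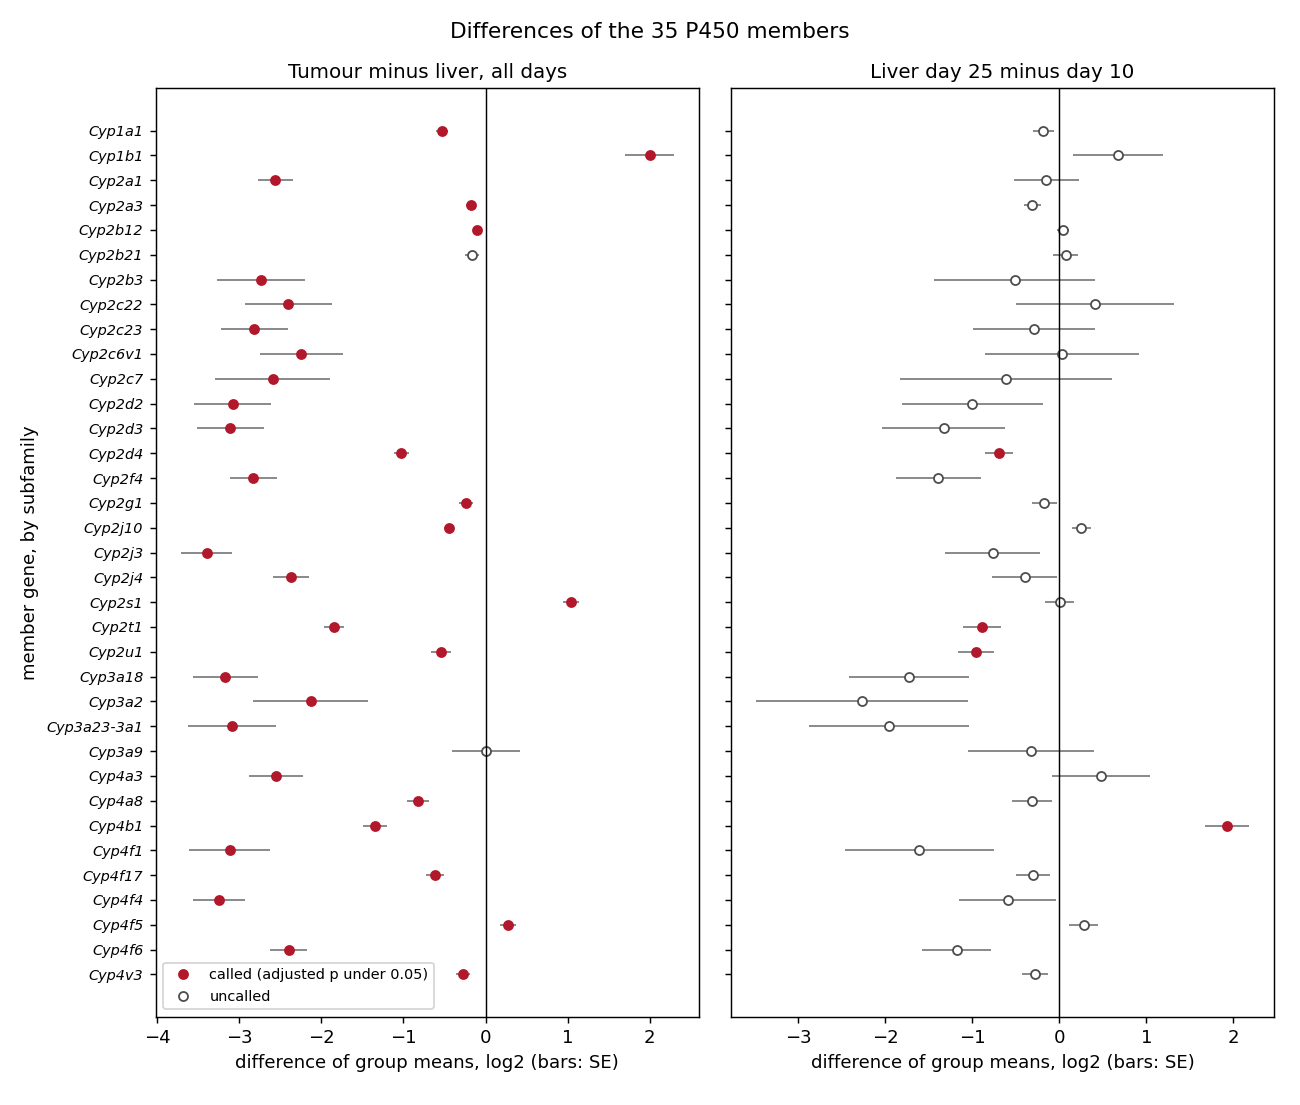
Difference of group means on the log2 scale for each of the 35 P450 members, with bars of 1 SE. The left panel sets 9 tumours against 9 livers and the right panel the 3 livers of day 25 against the 3 of day 10. Filled points were called at an adjusted p under 0.05 by limma on all 21 arrays. At left 33 points are filled, and at right 4, of which only Cyp4b1 lies above 0.

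Over days in the liver, few members were called over all arrays. Between days 25 and 10, 25 of the 35 had a difference below 0, called or not, beside 7308 of all 14218 genes. From day 10 to day 15 no member was called higher or lower by limma (0 of 35 in each direction), beside 0.0211% and 0.00703% of all genes. The fit of the 9 livers alone also called 0. At an unadjusted p under 0.05, 0 members were higher and 3 lower over all arrays, and 1 and 3 in that fit. No share of all genes is given for the unadjusted threshold. Between day 10 and day 25, 1 member rose and 3 fell, against 5.33% and 3.77% of all genes, with a median of -0.31 over the members and -0.01 over all genes. The arrays of these days did not overlap for 2 higher and 14 lower members, against 15.1% and 15.3% of all genes. Between day 15 and day 25 only Cyp4b1 was called, higher, against 0.823% of all genes higher and 1.38% lower.

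The fit of all arrays takes its spread also from the tumours, which varied more than the livers for many members. A fit of the 9 livers alone, added after the data were seen, called 2 members higher and 8 lower at day 25 against day 10, beside 3.63% and 2.44% of all genes. The members were Cyp4b1 and Cyp1b1 (higher) and Cyp2d3, Cyp2d4, Cyp2f4, Cyp2t1, Cyp3a18, Cyp3a23-3a1, Cyp4f1 and Cyp4f6 (lower). Values from this fit are named as such.

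**Figure D4:**
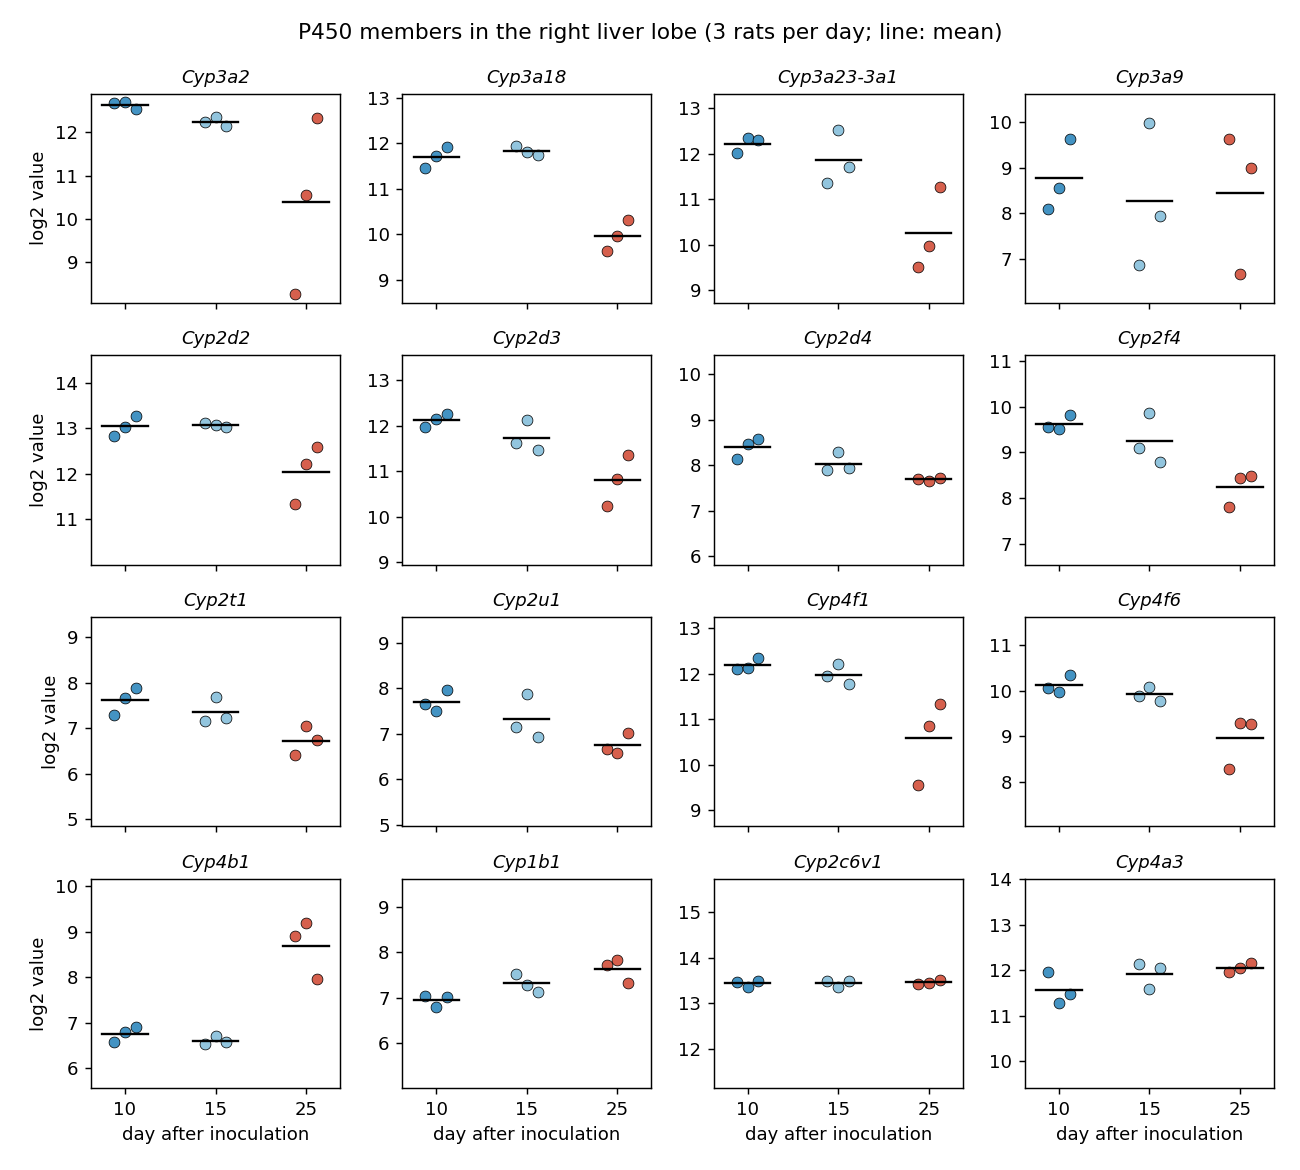
Log2 value of P450 members in the livers of days 10, 15 and 25, 1 point per rat and a line at the mean of 3 rats; each panel has its own vertical range. Cyp4b1 lies at 6.54 to 6.90 on days 10 and 15 and at 7.97 to 9.19 on day 25. Cyp3a18, Cyp2f4, Cyp4f1 and Cyp4f6 are lower in all 3 livers of day 25, Cyp3a2 spreads from 8.25 to 12.33, and Cyp2c6v1 is level.

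Cyp4b1 rose in the liver. It measured 6.57, 6.80 and 6.90 at day 10 (rats 1, 2 and 3), 6.54, 6.71 and 6.58 at day 15 (rats 4, 5 and 6) and 8.91, 9.19 and 7.97 at day 25 (rats 7, 8 and 9). Every day 25 liver lay above all earlier livers, that of rat 9 by the least. The rise was 1.93 against day 10 (SE 0.25, limma adjusted p = 0.000412; 0.00911 in the fit of 9 livers) and 2.08 against day 15 (SE 0.25, adjusted p = 0.000624; 0.0174 in the fit of 9 livers). In a fit of the day 15 and day 25 livers only, the second call was lost (adjusted p = 0.11). In the tumours of the same days Cyp4b1 measured 5.70, 5.63 and 5.90 at day 10 and 5.60, 6.51 and 6.25 at day 25. The difference between tumour and liver changed by -1.56 from day 10 to day 25 (SE 0.36, adjusted p = 0.0432), the only member called in that test (0 higher, 1 lower; 0.373% and 1.09% of all genes). This call was lost without any one of the 6 arrays of day 10, the day 25 tumour of rat 7 or the day 25 livers of rats 7 or 8 (adjusted p = 0.0798 to 0.107), and without the 3 arrays with pancreatic transcripts (0.0502). Without the day 25 liver of rat 9, Cyp4a8 was called too (0.95, adjusted p = 0.0483).

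Other transcripts also rose in the liver between days 10 and 25 (5.33% of all genes were called higher), some of them already at day 15. At day 15 the list means were 9.52 to 9.85 (macrophage), 7.07 to 7.56 (biliary) and 6.42 to 6.67 (adipocyte), all above day 10. Those of the myofibroblast and endothelial genes overlapped day 10. Cyp4b1 differed by -0.15 between days 15 and 10 and was uncalled. Of 10 macrophage genes 6 rose (means over the list of 9.16 to 9.41 at day 10 and 10.33, 9.93 and 9.72 in rats 7, 8 and 9), of 11 biliary genes 4 rose (6.48 to 6.55, then 8.34, 7.21 and 6.72), of 12 myofibroblast genes 2, and of 9 endothelial genes 1, Vwf (1.04, adjusted p = 0.00304). Of 8 adipocyte genes 3 rose, with a mean over the list of 6.31 to 6.40 at day 10 and 7.32, 7.10 and 6.67 in rats 7, 8 and 9. These were Fabp4 (2.95, adjusted p = 0.00555), Lpl (1.90, adjusted p = 0.0233) and Cfd (1.14, adjusted p = 0.0283). Adipoq and Plin1, which define adipocytes, stayed below the array medians in every liver, at 4.68 to 5.15 and 5.19 to 5.73. In the fit of 9 livers, 1 biliary gene was higher (Krt18, adjusted p = 0.0472) in place of 4, and 3 endothelial genes in place of 1, with 6 macrophage, 2 myofibroblast and 3 adipocyte genes as before. Cyp4b1 itself was highest in rat 8 and the adipocyte and macrophage means in rat 7. The part of these cells in the Cyp4b1 values was not tested.

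In the 3a subfamily the day 25 livers were low, with rats that differed. Cyp3a18 measured 11.45, 11.72 and 11.92 at day 10, 11.95, 11.81 and 11.74 at day 15 and 9.64, 9.96 and 10.31 at day 25. All 3 day 25 livers lay below every earlier one. The difference of -1.73 from day 10 was uncalled over all arrays (SE 0.69, limma adjusted p = 0.130) and called in the fit of 9 livers (SE 0.18, adjusted p = 0.00510), as was that of -1.86 from day 15 (adjusted p = 0.193 and 0.00863). Cyp3a23-3a1 measured 12.01, 12.35 and 12.30, then 11.36, 12.53 and 11.72, then 9.52, 9.98 and 11.28. The difference of -1.96 between days 25 and 10 had adjusted p = 0.198 over all arrays and 0.0377 in the fit of 9 livers. Here rat 9 lay close to the lowest day 15 liver, and rat 7 was lowest.

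Cyp3a2 spread widely between the livers of day 25. It measured 12.69, 12.70 and 12.54 at day 10, 12.24, 12.35 and 12.16 at day 15 and 8.25, 10.56 and 12.33 in rats 7, 8 and 9 at day 25. Rat 9 kept the level of day 15, while rats 7 and 8 lay below all earlier livers. The difference of -2.27 was uncalled in both fits (SE 1.22, limma adjusted p = 0.266; SE 0.79, adjusted p = 0.127 in the fit of 9 livers). Cyp3a9 measured 8.10, 8.56 and 9.62, then 6.86, 9.98 and 7.93, then 9.63, 6.67 and 9.00, with a difference of -0.33 (SE 0.73, adjusted p = 0.834) and no order of days. In Cyp3a2, Cyp3a18 and Cyp3a23-3a1 alike, rat 7 was lowest and rat 9 highest at day 25.

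Cyp2d4, Cyp2t1 and Cyp2u1 fell in the liver between days 10 and 25. Cyp2d4 measured 8.14, 8.46 and 8.57 at day 10, 7.89, 8.28 and 7.94 at day 15 and 7.69, 7.66 and 7.73 at day 25, and fell by 0.69 from day 10 to day 25 (SE 0.16, limma adjusted p = 0.0139). Cyp2t1 measured 7.28, 7.67 and 7.88, then 7.16, 7.69 and 7.22, then 6.40, 7.05 and 6.73, and fell by 0.89 (SE 0.22, adjusted p = 0.0191). Cyp2u1 measured 7.66, 7.49 and 7.96, then 7.15, 7.87 and 6.93, then 6.66, 6.57 and 7.01, and fell by 0.96 (SE 0.21, adjusted p = 0.0101; 0.0532 in the fit of 9 livers). In all 3 genes the livers of day 25 lay below those of day 10. The calls depended on single livers of day 10 and day 25. Without the liver of rat 2, Cyp2d4 and Cyp2t1 were uncalled (adjusted p = 0.0552 and 0.0661). Without that of rat 3, Cyp2d4, Cyp2t1 and Cyp2u1 were uncalled (0.0693, 0.0897 and 0.054) and Cyp2a3 was called (-0.39, adjusted p = 0.0457). Without that of rat 7, Cyp2t1 was uncalled (0.09), and without that of rat 9, Cyp2j10 was called higher (0.37, adjusted p = 0.0293).

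Cyp2f4 measured 9.56, 9.51 and 9.82 at day 10, 9.09, 9.87 and 8.78 at day 15 and 7.80, 8.45 and 8.49 at day 25, with a difference of -1.39 (SE 0.49, limma adjusted p = 0.0890; 0.0290 in the fit of 9 livers). Every day 25 liver lay below all earlier ones. Cyp2d3 measured 11.98, 12.16 and 12.27, then 11.62, 12.13 and 11.46, then 10.23, 10.84 and 11.37, with a difference of -1.32 (SE 0.71, adjusted p = 0.262; 0.0314 in the fit of 9 livers). Cyp2d2 measured 12.84, 13.03 and 13.27, then 13.11, 13.08 and 13.03, then 11.34, 12.21 and 12.60, and was uncalled in both fits (-0.996, adjusted p = 0.496 and 0.0673). In both 2d genes rat 7 was lowest and rat 9 highest among the livers of day 25.

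In the 4f subfamily rat 7 was again the lowest liver of day 25 for Cyp4f1 and Cyp4f6. Cyp4f1 measured 12.10, 12.13 and 12.34 at day 10, 11.96, 12.21 and 11.77 at day 15 and 9.55, 10.86 and 11.33 at day 25, a difference of -1.61 between days 25 and 10 (SE 0.85, limma adjusted p = 0.259; 0.0423 in the fit of 9 livers). Cyp4f6 measured 10.06, 9.98 and 10.36, then 9.90, 10.08 and 9.79, then 8.29, 9.30 and 9.28, a difference of -1.18 (SE 0.39, adjusted p = 0.0723; 0.0357 in the fit of 9 livers, and 0.0444 with arrays centred on the genes tested). In both genes the livers of day 25 lay below all earlier livers. Cyp4f4, Cyp4f17 and Cyp4f5 were uncalled in both fits (-0.59, -0.30 and 0.28).

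Members of other subfamilies were uncalled between liver days over all arrays. Cyp2c6v1 measured 13.47, 13.35 and 13.49 at day 10, 13.49, 13.36 and 13.48 at day 15 and 13.43, 13.45 and 13.52 at day 25, near the top of the scale (highest value 14.62). Of the 2c, 2a, 2b, 2j and 4a members none was called between days 25 and 10 in either fit, with median differences of -0.13, -0.23, 0.04, -0.39 and 0.08 per subfamily. Among them were differences of -0.76 for Cyp2j3 (SE 0.55, adjusted p = 0.425), -0.61 for Cyp2c7 (SE 1.21, adjusted p = 0.812) and -0.51 for Cyp2b3 (SE 0.92, adjusted p = 0.791). Cyp4a3 measured 11.97, 11.27 and 11.48, then 12.14, 11.58 and 12.05, then 11.96, 12.04 and 12.15 (0.48, limma adjusted p = 0.660; 0.189 in the fit of 9 livers). Cyp1b1 measured 7.03, 6.80 and 7.02, then 7.52, 7.29 and 7.13, then 7.72, 7.83 and 7.32, all day 25 livers above those of day 10. Its difference of 0.67 was uncalled over all arrays (SE 0.52, adjusted p = 0.462) and called in the fit of 9 livers (SE 0.16, adjusted p = 0.0423).

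The hepatocyte genes were read in the same livers. Of 16 hepatocyte genes 0 were called between days 25 and 10 by limma over all arrays (0 at an unadjusted p under 0.05). A difference below 0, called or not, was seen for 12 of the 16, beside 25 of the 35 members. The fit of 9 livers called 2 lower, Otc (-1.95, adjusted p = 0.00679) and Ttr (-0.52, adjusted p = 0.0314), beside 2.44% of all genes. The median over the 16 was -0.13, against -0.31 for the members. Of 19 acute phase genes, which the liver makes in inflammation, 4 rose, beside 5.33% of all genes. These were A2m (5.26, adjusted p = 0.000220), Lcn2 (4.89, adjusted p = 0.00266), Lbp (2.01, adjusted p = 0.0258) and Socs3 (1.23, adjusted p = 0.0302). The fit of 9 livers called 3 of the 19 higher, beside 3.63% of all genes. A2m measured 12.80, 13.34 and 13.24 in rats 7, 8 and 9 and 6.85 to 8.46 at day 10. The part of inflammation in the P450 values was not tested.

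The metastases had the lowest group means for members of the 2c, 2d and 3a subfamilies other than Cyp2d4 and Cyp3a9. Against the livers of the same rats, 27 members were lower and 1 higher (limma; 23.6% and 33.4% of all genes), with a median of -2.61. Cyp2c6v1 measured 4.46, 3.90 and 4.09 in the metastases of rats 7, 8 and 9 and 13.43, 13.45 and 13.52 in their livers, a difference of -9.32 (SE 0.88, adjusted p = 2.99e-07). Cyp3a2 measured 4.29, 4.24 and 3.80 against 8.25, 10.56 and 12.33 (-6.27, SE 1.22, adjusted p = 0.000347). No split of the low values into signal and background was made.

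Some members kept a signal above the array medians in all 3 metastases. Cyp2a1 measured 8.15, 8.00 and 7.77 there, 8.32, 8.91 and 9.34 in the day 25 tumours and 11.82, 11.55 and 11.77 in the livers, so that metastases stood at 7.48% of liver (-3.74, SE 0.38, limma adjusted p = 5.17e-07). This rests on 1 probe set, and the one shared by Cyp2a2 and Cyp2a1 averaged 5.75 in metastases, below the array medians, and differed from liver by -5.88. Cyp4a3 measured 6.74, 6.64 and 6.91 in metastases and 11.96, 12.04 and 12.15 in livers (-5.29, SE 0.57, adjusted p = 1.01e-06). Here too the probe set shared with another gene, that of Cyp4a3 and Cyp4a2, averaged 3.72 in metastases, below the array medians. It differed from liver by -8.78. Cyp2s1 measured 6.10, 6.50 and 6.67 in metastases and 5.52, 5.46 and 5.79 in livers, the single member called higher (0.84, SE 0.17, adjusted p = 0.000428). Without the metastasis of rat 7, Cyp1b1 was called higher too (1.72, adjusted p = 0.00166). Cyp3a9 measured 10.12, 9.69 and 8.86 in metastases and 9.63, 6.67 and 9.00 in livers (1.13, SE 0.73, adjusted p = 0.194).

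Between metastasis and tumour of day 25, 2 members of the 2c subfamily were called lower and 0 higher by limma, beside 0.331% and 0.00703% of all genes. At an unadjusted p under 0.05, 14 members were lower and 0 higher, and no share of all genes is given for that threshold. Cyp2c6v1 measured 7.09, 11.76 and 12.16 in the tumours of rats 7, 8 and 9 and differed in metastases by -6.19 (SE 0.88, adjusted p = 0.00211). Cyp2c22 measured 6.57, 11.84 and 11.37 in tumours and 4.59, 4.51 and 4.72 in metastases and differed by -5.32 (SE 0.91, adjusted p = 0.0106). In both genes the tumour of rat 7 lay nearest to the metastases, as did its hepatocyte mean of 7.78. Without that tumour 11 members were lower, and no share of all genes is given for that fit. Without the tumour of rat 8, that of rat 9 or the metastasis of rat 9 the call of Cyp2c22 was lost (adjusted p = 0.0949, 0.104 and 0.0562) and 1 member was left, Cyp2c6v1. With only these groups in the fit, or without the arrays with pancreatic transcripts, no member was called lower (Cyp2c6v1 at adjusted p = 0.911 and 0.0604).

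Between tumours of day 25 and day 10, 0 members were called by limma, with a median of -0.58. Of all genes 0.0141% were called higher and 0.0422% lower. At an unadjusted p under 0.05, 0 members were higher and 11 lower. No share of all genes is given for that unadjusted threshold, and the called shares cannot be set against it. Cyp3a2 measured 11.87, 10.56 and 11.48 in the day 10 tumours and 3.96, 7.52 and 10.39 in those of day 25, a difference of -4.02 (adjusted p = 0.166). Cyp3a18 measured 9.58, 8.38 and 9.58, then 4.15, 6.71 and 7.53, without overlap and with a difference of -3.05 (adjusted p = 0.137). Without the day 25 tumour of rat 9, Cyp3a2, Cyp3a18 and Cyp3a23-3a1 were called lower (adjusted p = 0.0354, 0.0313 and 0.0376). Without the 3 arrays with pancreatic transcripts, which include that tumour, 10 members were called lower, with Cyp3a18 at -3.75 (adjusted p = 0.00750). No share of all genes is given for these alternative fits. The hepatocyte mean was 10.52 to 11.39 in the day 10 tumours and 7.78 to 10.61 in those of day 25, and its part in these differences was not tested.

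Receptors and factors that control P450 genes were lower in tumour in 23 of 29 cases, with 0 higher and a median of -1.31 (limma). Of all genes 37.8% were lower and 36.8% higher. Ghr, the growth hormone receptor, differed by -2.98 (SE 0.59, adjusted p = 0.000238), Prox1, a factor of hepatocytes and lymph vessels, by -2.78, and Nr1i2, the pregnane X receptor, by -2.24 (SE 0.09, adjusted p = 3.50e-12). Cebpb, a factor of the acute phase, was uncalled (0.11). In the liver, 1 of the 29 rose and 3 fell between days 10 and 25, beside 5.33% and 3.77% of all genes. Nr1i3, the constitutive androstane receptor that controls 2b and 3a genes, measured 6.75, 7.66 and 8.71 at day 10, 6.36, 6.56 and 6.89 at day 15 and 5.92, 6.80 and 6.22 at day 25, and fell by 1.39 (SE 0.35, adjusted p = 0.0205). The day 25 liver of rat 8 overlapped that of rat 1. Its partner Rxra fell by 0.75 (SE 0.19, adjusted p = 0.0228) and Foxa1 by 0.74 (SE 0.16, adjusted p = 0.00944), while Nr1i2 differed by 0.15 (adjusted p = 0.608) and Hnf4a by 0.04 (adjusted p = 0.982).

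Cux2, a factor that female rodent liver holds more of than male liver, measured 4.43, 4.44 and 4.41 at day 10, 4.69, 4.60 and 4.83 at day 15 and 5.70, 5.76 and 5.96 at day 25, and rose by 1.38 (SE 0.09, limma adjusted p = 2.88e-07). Its days did not overlap, and every value lay below the array medians. In the fit of 9 livers, Cux2 and Foxa3 were higher (adjusted p = 0.00115 and 0.0337) and Foxa1 lower (0.0349), and Nr1i3 and Rxra were uncalled (0.0963 and 0.0626). Cyp2c11, the male-specific P450 that the rule left out, measured 13.35, 13.57 and 13.53 at day 10 and 5.93, 6.76 and 11.13 in rats 7, 8 and 9, and fell by 5.54 (adjusted p = 0.0162). Rat 9 was the highest day 25 liver for Cyp2c11, as it was for Cyp3a2, Cyp3a18, Cyp2d2, Cyp2d3 and Cyp4f1 and for Cyp2c7, the form more abundant in females (12.42, 12.89 and 13.73 in rats 7, 8 and 9). Of the 7 P450s left out, Cyp2c11 alone was called in the liver over all arrays, and all 7 were lower in tumour, beside 37.8% of all genes. Between liver days 25 and 10 the fit of 9 livers called 2 of the 7 lower, beside 2.44% of all genes.

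Of 16 genes for the electron donors and haem of P450s, 14 were lower and 1 higher in tumour (limma, median -1.03), beside 37.8% and 36.8% of all genes. Pgrmc1, a haem-binding partner, differed by -1.70, Cyb5a, a small electron-carrying cytochrome, by -1.63 and Alad, an enzyme of haem synthesis, by -1.59, while Tspo, a porphyrin and cholesterol binding protein of mitochondria, was higher by 2.31 (SE 0.14, adjusted p = 3.39e-10). Por, the oxidoreductase that serves all microsomal P450s, differed by -0.71 (SE 0.23, adjusted p = 0.0105). In the liver between days 10 and 25 4 of the 16 fell and 2 rose, beside 3.77% and 5.33% of all genes. Cyb5r3, the reductase of that cytochrome, fell by 1.24 (adjusted p = 0.00422), and Ppox, Fech and Uros, enzymes of haem synthesis, fell by 1.04, 0.97 and 0.36 (adjusted p = 0.00651, 0.0320 and 0.0162). Hmox1, which breaks haem down, measured 8.84, 8.34 and 8.42 at day 10 and 11.87, 10.17 and 10.44 at day 25, and rose by 2.29 (SE 0.40, adjusted p = 0.00306). Tspo rose by 1.41 (adjusted p = 0.00276), and Por was uncalled (0.70, adjusted p = 0.293) with 10.67 in rat 7 and 8.72 in rat 9. In the fit of 9 livers Fech and Uros were uncalled (0.111 and 0.0866).

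P450s of other families and further drug enzymes were described beside the members. Of 18 P450s outside families 1 to 4, 8 were lower and 5 higher in tumour (limma, median -0.12), beside 37.8% and 36.8% of all genes. They were led by the bile acid genes Cyp7a1 (-3.45), Cyp27a1 (-2.70) and Cyp8b1 (-2.57) and by Tbxas1, thromboxane synthase (2.03), Cyp26b1, which clears retinoic acid (1.53), and Cyp11b1 (1.51). In the liver Cyp20a1 alone was called between days 10 and 25 over all arrays (0.49, adjusted p = 0.0149), beside 5.33% of all genes higher and 3.77% lower. Cyp20a1 was uncalled in the fit of 9 livers. That fit called 0 of the 18 higher and 1 lower, beside 3.63% and 2.44% of all genes. Of 20 other enzymes of drug handling, 17 were lower in tumour and Gstp1, a glutathione transferase of bile duct cells, was higher (3.89, SE 0.10). Between days 10 and 25 4 of these fell and 2 rose in the liver, beside 3.77% and 5.33% of all genes. Ces1d, a carboxylesterase, fell by 5.84 (adjusted p = 0.000717), Fmo1 fell by 2.53 (0.00675), Ugt2b1 fell by 2.35 (0.0392) and Aox1 fell by 2.23 (0.00933), and Fmo5 rose by 2.09 (0.0196) and Nqo1 by 1.05 (0.0184). The fit of 9 livers called 3 of the 20 lower and 2 higher, beside 2.44% and 3.63% of all genes. Ces1d measured 11.10, 11.93 and 12.05 at day 10 and 4.35, 5.29 and 7.92 in rats 7, 8 and 9, without overlap. Of 14 genes of arachidonic acid handling, 7 were higher and 3 lower in tumour, beside 36.8% and 37.8% of all genes. Among them were Ptgs2 (3.24), which opens the prostaglandin branch, and the epoxide hydrolases Ephx1 (-2.86) and Ephx2 (-1.90).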

How the data were processed

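Total RNA of 21 snap-frozen tissue pieces was hybridised to Affymetrix rat arrays. The authors deposited 1 log2 value per probe set and array, made with RMA (background correction, quantile normalization, probe summary), per the submitters' processing notes; the sources used here do not give the program. RMA aligns the arrays, so a shift of most transcripts is partly removed. No detection calls came with the values. The table held 31099 probe sets, of which 20832 had 1 gene symbol, 436 several and 9831 none. The 57 array controls are counted within these. Of the identifiers, 20764 matched a current gene table (GRCr8, names only), and 4 P450 probe sets with 2 symbols were left out. The description of the day 25 livers says day 55, whereas title and source say day 25, which was used.

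Differences were tested with limma 3.58.1 (R 4.3.3; lmFit, eBayes) on 7 group means, 14 residual degrees of freedom, in 11 comparisons, with Benjamini-Hochberg adjustment over 14218 genes. A fit of the 9 livers has 6. The model was run on simulated data with the same spread in all groups and no link between tissues of a rat. Such data cannot show how the model handles the unequal spread of tumours and livers. The median SD of a gene within a group was 0.11 to 0.177, and the number of arrays limits the precision. The labels give each piece its rat, which pairs the tissues; same-rat deviations correlated at 0.040 to 0.578, and the rat entered as a block in an alternative. Every member could be named; members and all 17 gene lists (225 of 251 entries measured), promoter patterns included, were chosen with earlier results of these data known. Single arrays were to be given for up to 6 members per direction with the largest called difference (tumour against liver, liver day 25 against day 10, metastasis against tumour) and the brightest of each subfamily; others were added. Of each list, up to 3 called genes per direction and the brightest uncalled gene were to be named; further genes were named after their values were seen.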

Additional observations from a re-analysis of the deposited data

Results flagged for a closer look

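A difference between days was seen for 1 member. For Cyp4b1 the tumour-liver difference was -1.02 at day 10 and -2.57 at day 25, and the test of the change itself gave -1.56 (SE 0.36, limma adjusted p = 0.0432). Tumours were lower than the livers of their day on all 6 pairs of arrays. The liver rose by 1.93 and the tumour differed by 0.38 (adjusted p = 0.447). The adjusted p ran from 0.00402 to 0.107 over the alternatives, with the highest value without the day 25 tumour of rat 7 and the lowest without the day 25 liver of rat 9. It was 0.024 with the rat as a block.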

How the results depend on the processing

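Limits: each group has 3 rats, levels near either end of the scale understate differences, and the tumours' spread enters every test over all arrays. Of the results for single genes, 2236 kept direction and side of the threshold under an alternative, 34 were gained, 54 were lost and 2 were reversed, Cyp2c22 (0.18) and Cyp2c6v1 (0.13) between tumours of days 25 and 10 without the day 25 tumour of rat 7; over all arrays left out these ran from -2.46 to 0.18 and from -2.41 to 0.13.

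With the rat as replicate block, 2 members were higher in tumour at day 25 (Cyp1b1 and Cyp2s1), and that block changed no other count by over 1.5 times. With only the groups of the comparison, 0 members were higher in liver day 25 against day 15, 0 lower in metastasis than in tumour and 0 lower in the change of the tumour-liver difference. Added after the data were seen, the fit of 9 livers gave 1 lower member (Cyp3a18) for liver day 25 against day 15, and 2 higher and 8 lower for day 25 against day 10. Centring on the genes tested gave 5 lower members there and 0 in the change of the difference; it moved the median of all genes in tumour against liver by -0.23, to 3797 higher and 7695 lower genes against 5229 and 5377. Without the 3 arrays with pancreatic transcripts, 10 members were lower in tumours of day 25 than of day 10, 0 in metastases than in tumours and 0 in the change of the difference. No share of all genes is given for that fit.

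Leaving out each array in turn gave these ranges of members: tumour against liver 3 to 3 higher and 29 to 31 lower over all days, 2 to 3 and 20 to 24 at day 10, 2 to 3 and 18 to 21 at day 15, 1 to 2 and 21 to 25 at day 25; liver day 25 against day 10, 1 to 2 higher and 1 to 4 lower; liver day 25 against day 15, 1 to 1 and 0 to 0; liver day 15 against day 10, 0 throughout; tumour day 25 against day 10, 0 higher and 0 to 3 lower; metastasis against tumour, 0 higher and 1 to 11 lower; metastasis against liver, 1 to 2 higher and 25 to 27 lower; change of the difference, 0 to 1 in each direction.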

Other observations

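Probe sets with 2 P450 symbols, which belong to no single gene, were left out of the members and read separately (limma, adjusted over all probe sets). That of Cyp2b2 and Cyp2b1, the forms induced by phenobarbital through Nr1i3, averaged 8.76 ± 0.28, 7.72 ± 0.98 and 7.06 ± 1.15 (SD, n = 3) in livers of days 10, 15 and 25, a difference of -1.69 between days 25 and 10 (SE 0.53, adjusted p = 0.0693). Tumour minus liver was -2.21 (SE 0.31, adjusted p = 7.85e-06). That of Cyp4a3 and Cyp4a2 averaged 9.20 ± 3.27 in day 25 tumours and 3.72 ± 0.13 in metastases. That of Cyp2d5 and Cyp2d1 averaged 11.67 ± 0.17, 11.50 ± 0.04 and 10.93 ± 0.33 in the livers of the 3 days. That of Cyp2a2 and Cyp2a1 averaged 12.18 ± 0.08, 11.71 ± 0.50 and 11.63 ± 0.25 in the same livers and 5.75 ± 0.36 in metastases. Of the 4 members with a second probe set of their own, Cyp4a8 differed in call between tumour and liver at day 25, with -1.54 (adjusted p = 0.0144) on the dimmer probe set and -0.52 (adjusted p = 0.0785) on the one used. Cyp4v3 differed in call at day 15, with -0.51 (adjusted p = 0.0238) on its dimmer probe set and 0.01 (adjusted p = 0.947) on the one used. Cyp2d4 differed in call between metastasis and liver, with -0.44 (adjusted p = 0.11) on its dimmer probe set and -0.80 (adjusted p = 0.000558) on the one used. In tumour against liver at day 25 Cyp2j3 gave -2.49 on its dimmer probe set and -3.88 on the one used, both called.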
